A study of Arabidopsis thaliana with 12 samples.

Results

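AUR1 (AT4G32830) and AUR2 (AT2G25880), which encode Aurora protein kinases, and TOPII (AT3G23890), which encodes DNA topoisomerase II, were followed over 12 ATH1 microarrays of Arabidopsis leaf RNA. Each is named alone by 1 probe set, 253403_at for AUR1, 266655_at for AUR2 and 256864_at for TOPII, so no choice between probe sets was needed. AUR1 and AUR2 are related genes, and whether transcripts of one bind to probes of the other was not tested. They are 3 of the 13350 genes that the annotation used here names alone on at least 1 probe set. The rule that picks their probe sets goes by gene name, but the genes were chosen with earlier results of these data known. Calls of these genes below therefore describe them and are no independent test.

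Aurora kinases act in mitosis. In Arabidopsis AUR1 and AUR2 are closely related, sit on the spindle and the forming cell plate and help to orient formative divisions, while the more distant AUR3 sits on centromeres and phosphorylates histone tails. Topoisomerase II cuts both strands of a DNA double helix, passes another helix through the gap and so untangles replicated chromosomes before they separate. Transcripts of all these enzymes are found mainly in dividing cells, which are scarce in fully grown leaves.

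The study set the hypomorphic argonaute1 mutant ago1-27, which is impaired in small RNA-guided silencing, against wild type, both in the Col-0 background, and asked how 12 h under water affects each. Leaves were from 4-week-old soil-grown plants. The groups were submerged ago1-27, dark-kept ago1-27, submerged wild type and dark-kept wild type, and the water stood 10 cm over leaf height. Each had 3 biological replicates, each a pool of 4 plants, and all plants, submerged or not, spent the 12 h in darkness. The number of arrays limits the precision.

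Signals are MAS5 intensities on a linear scale. A signal under the 40th percentile of its own array is called low below, since no detection calls were used. That limit was 71.6 to 91.7 on 11 arrays and 119.8 on replicate 3 of submerged ago1-27, whose median signal of 207 also lay above the 134 to 173 of the other arrays. Replicate 3 correlated with the other arrays of its group at 0.932 to 0.938 over the tested probe sets, against 0.976 between those arrays, and replicate 1 of dark-kept wild type correlated with its group at 0.933 to 0.942, against 0.969. Results that rest on replicate 3 of submerged ago1-27 are therefore given with and without it. The 3' to 5' signal ratio of the GAPDH control was 1.69 to 2.24 on the ago1-27 arrays and 1.23 to 1.52 on the wild-type arrays, so that this measure of RNA quality moved with the genotype. The actin ratio was 10.7 to 12.5 on submerged ago1-27 arrays, where the 3 genes were highest on average, and 5.57 to 8.72 on the other 9 arrays. The 25S ribosomal RNA control was 7269.9 to 10281 on submerged ago1-27 arrays and 14622 to 21199 on the other arrays. The control U12639 gave 1.74 to 44.7 on submerged arrays and 24471 to 29779 on dark arrays. The part of these controls in the differences between groups was not tested. The annotation names no probe set for AGO1, so the genotype labels could not be checked on it.

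Of the leaf and other cell type markers, 5 of 49 are named on the array. The mesophyll marker RCA, the activase of the carbon-fixing enzyme Rubisco, averaged 29240.4 ± 2453 in submerged ago1-27, 29421 ± 1336 in dark-kept ago1-27, 24117 ± 1689 in submerged wild type and 21033 ± 1433 in dark-kept wild type (SD, n = 3 each). SPCH and MUTE, regulators of stomatal precursor divisions, and the shoot meristem gene CLV3 were low on every array. FAMA, a regulator of guard cell formation, averaged 142 ± 25.1 in submerged ago1-27 and 112 ± 25.8 in dark-kept ago1-27, against 98.6 ± 11.4 in submerged wild type and 69.4 ± 6.14 in dark-kept wild type. FAMA was low on every dark-kept wild-type array and on replicate 3 of dark-kept ago1-27. Its part in the levels of the division genes was not tested, and no marker of growing leaf, flower or root is named on the array.

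AUR1 was higher in ago1-27 than in wild type under submergence. Its signals were 309.8, 188 and 577 in submerged ago1-27 and 198, 181 and 218 in dark-kept ago1-27. In wild type they were 65.3, 100.8 and 109 under submergence and 145, 106 and 91.0 in the dark. All 6 ago1-27 arrays lay above all 6 wild-type arrays, as for 20.4% of tested probe sets, and only replicate 1 of submerged wild type was low. The group means were 358 ± 199 in submerged ago1-27, 199 ± 18.5 in dark-kept ago1-27, 91.7 ± 23.3 in submerged wild type and 114 ± 28.1 in dark-kept wild type (SD, n = 3 each). Without replicate 3 the mean of submerged ago1-27 was 249 ± 85.9 (SD, n = 2), which kept AUR1 in the same order of groups.

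AUR2 had signals of 135, 125 and 355 in submerged ago1-27, and 126, 41.6 and 76.5 in dark-kept ago1-27. In wild type the signals were 34.9, 37.9 and 55.7 under submergence and 49.4, 15.6 and 38.4 in the dark. The submerged ago1-27 arrays lay above all other arrays except that replicate 1 of dark-kept ago1-27 fell between them. All 6 wild-type arrays were low, as were replicates 2 and 3 of dark-kept ago1-27, and 1 of these, replicate 2, lay below the highest wild-type arrays. The means were 205 ± 130 in submerged ago1-27, 81.4 ± 42.5 in dark-kept ago1-27, 42.8 ± 11.2 in submerged wild type and 34.5 ± 17.3 in dark-kept wild type (SD, n = 3 each). Without replicate 3 the mean of submerged ago1-27 was 129.9 ± 7.16 (SD, n = 2).

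TOPII was higher in ago1-27 than in wild type, where it was low throughout. It gave signals of 159.7, 110.1 and 778 in submerged ago1-27, and 219, 129.8 and 218 in dark-kept ago1-27. In wild type the signals were 61.3, 59.1 and 67.8 under submergence and 70.0, 20.5 and 43.6 in the dark. Every ago1-27 array lay above every wild-type array, as for 20.4% of tested probe sets. Every ago1-27 signal lay above its array's limit and every wild-type signal under it, a pattern whose share among all probe sets was not counted. The means were 349 ± 372 in submerged ago1-27, 189 ± 51.2 in dark-kept ago1-27, 62.7 ± 4.53 in submerged wild type and 44.7 ± 24.8 in dark-kept wild type (SD, n = 3 each). Without replicate 3 the mean of submerged ago1-27 was 135 ± 35.1 (SD, n = 2), below that of dark-kept ago1-27, so the order of those 2 groups rested on 1 array.

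**Figure D1:**
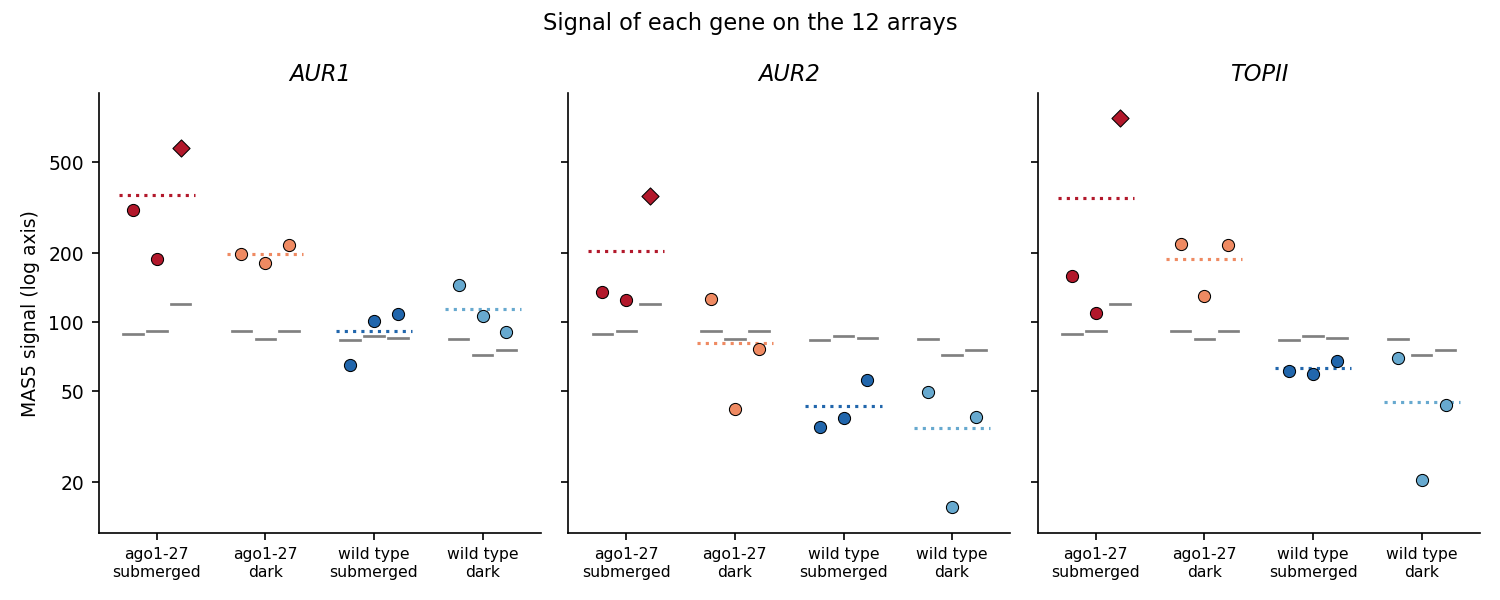
Signal of AUR1, AUR2 and TOPII (MAS5 intensity, log axis) on each of the 12 arrays by group; points are arrays, the diamond is replicate 3 of submerged ago1-27, dotted lines are group means and grey dashes each array's 40th percentile. The diamond is the highest point in each panel, at 577 for AUR1, 355 for AUR2 and 778 for TOPII, and the wild-type points of AUR2 and TOPII all lie under their grey dashes.

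AUR2 and TOPII entered the tests because of ago1-27 arrays alone, with 4 and 6 arrays above the limit, all of them ago1-27, while AUR1 had 11. That they passed the filter is therefore no evidence of a difference. With every probe set tested and no filter, the same members were called. Relative to all probe sets of an array, AUR1 lay at the 51.8th to 73.9th percentile on ago1-27 arrays and the 36.4th to 48.4th on wild-type arrays. For AUR2 the ranges were 28.6 to 62.2 in ago1-27 and 17.5 to 33.9 in wild type, and for TOPII 42.8 to 80.3 in ago1-27 and 19.97 to 37.3 in wild type.

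The comparison of genotypes under submergence asks how transcripts of submerged leaves depend on AGO1 function. All 3 genes were called higher in ago1-27 by limma with Benjamini-Hochberg adjustment over the 14836 probe sets tested. The background was high: 26.7% of all tested probe sets were called higher in this comparison. The log2 change was 1.85 ± 0.35 (SE) for AUR1, a 3.61-fold difference (adjusted p = 0.0011). For AUR2 it was 2.11 ± 0.56 (adjusted p = 0.0083) and for TOPII 1.93 ± 0.62 (adjusted p = 0.022). Since all 3 submerged wild-type arrays were low for AUR2 and TOPII, their folds are bounds, namely the mean log2 signal of ago1-27 against the mean, per wild-type array, of the limit or the signal, whichever was higher. By this estimate AUR2 was at least 2.13-fold and TOPII at least 2.81-fold higher in submerged ago1-27. Such bounds, here and below, allow for low signals and not for the spread between arrays. The 95% intervals of the log2 change were 1.09 to 2.61 for AUR1, 0.91 to 3.32 for AUR2 and 0.60 to 3.27 for TOPII. In bulk leaf tissue, more dividing cells and more RNA per dividing cell cannot be told apart.

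Without replicate 3 of submerged ago1-27, AUR1 (log2 change 1.43 ± 0.30, adjusted p = 0.0027) and AUR2 (1.63 ± 0.57, adjusted p = 0.038, at least 1.52-fold) were still called higher, against 24.2% of all tested probe sets. TOPII was not, at 1.08 ± 0.46 (adjusted p = 0.076, at least 1.56-fold). The call of TOPII was also lost without replicate 1 (1.92, adjusted p = 0.053) or replicate 2 (1.89, adjusted p = 0.060) of submerged wild type.

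In the dark, TOPII was the member called higher in ago1-27, with a log2 change of 2.21 ± 0.62 (adjusted p = 0.0091) and a bound of at least 2.39-fold, since wild type was low on all 3 arrays. Of all tested probe sets, 32.1% were called higher in ago1-27 here. AUR1 differed by 0.83 ± 0.35 (adjusted p = 0.063) and AUR2 by 1.25 ± 0.56 (adjusted p = 0.074), and no fold is given for AUR2 because its bound lay under 1. Leaving out replicate 3 of submerged ago1-27, which enters this comparison only through the shared spread, brought AUR1 past the threshold (adjusted p = 0.020), left AUR2 outside it (adjusted p = 0.053) and gave 0.00073 for TOPII, against 33.9% of tested probe sets called higher. AUR1 also passed the threshold without replicate 2 of submerged ago1-27 (adjusted p = 0.029) or replicate 1 of dark-kept wild type (1.02, adjusted p = 0.037), and AUR2 without that wild-type array (1.59, adjusted p = 0.037) or replicate 2 of dark-kept ago1-27 (1.67, adjusted p = 0.036). No array of AUR1 or TOPII overlapped between the genotypes in the dark, a separation met by 36.5% of tested probe sets. Under submergence all 3 genes separated in this way, as did 34.3% of tested probe sets. Over both treatments AUR1 and TOPII had all 6 ago1-27 arrays above all 6 wild-type arrays and AUR2 did not, against 20.4% of tested probe sets.

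These shares lean on the scaling. Of the calls between genotypes, 60.1% were higher in ago1-27 under submergence and 60.7% in the dark, and with arrays centred on their medians 42% and 47.1% were. Under such centring 17.5% of all tested probe sets were called higher under submergence and 23.9% in the dark. The median log2 change of all tested probe sets was 0.17 in each of these comparisons before centring, and after centring the members differed between genotypes by 1.64 (AUR1), 1.91 (AUR2) and 1.73 (TOPII) under submergence and by 0.64, 1.06 and 2.02 for the same genes in the dark, with the same calls.

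The comparison of submergence with darkness asks how flooding changes each genotype beyond the lack of light. In ago1-27, none of the 3 genes was called by limma, and 1 of the 3, AUR2, had an unadjusted p under 0.05, as did 25% of all tested probe sets. The log2 change was 0.70 ± 0.35 for AUR1 (adjusted p = 0.23, 95% interval of the change -0.06 to 1.46), 1.299 ± 0.56 for AUR2 (adjusted p = 0.17, interval 0.10 to 2.50) and 0.38 ± 0.62 for TOPII (adjusted p = 0.74, interval -0.95 to 1.72). By adjusted p, 8.36% of all tested probe sets were called in either direction. Without replicate 3 the values were 0.28, 0.81 and -0.47, so the direction of TOPII turned, and no member had an unadjusted p under 0.05.

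In wild type, none of the 3 was called by limma either, against 7.05% of all tested probe sets called in either direction. None had an unadjusted p under 0.05, against 22.5% of all tested probe sets. AUR1 gave -0.32 ± 0.35 (adjusted p = 0.63), and its submerged and dark arrays overlapped. AUR2 gave 0.44 ± 0.56 (adjusted p = 0.69) and TOPII 0.66 ± 0.62 (adjusted p = 0.58), and a fold is given for neither, since every wild-type array was low.

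The interaction asks whether the response to submergence differs between ago1-27 and wild type. It was 1.02 ± 0.49 for AUR1 (adjusted p = 0.36), 0.86 ± 0.78 for AUR2 (adjusted p = 0.66) and -0.28 ± 0.87 for TOPII (adjusted p = 0.92). None of the 3 was called by limma, against 0.283% of all tested probe sets. None had an unadjusted p under 0.05, against 14.8% of all tested probe sets. Without replicate 3 the values were 0.61, 0.38 and -1.13. The sign for TOPII turned without replicate 1 (0.015) or 2 (0.28) of submerged ago1-27 or replicate 2 of dark-kept wild type (0.20). A larger genotype difference under submergence than in the dark was thus not shown for any member, although AUR1 and AUR2 were called in submerged leaves alone.

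**Figure D2:**
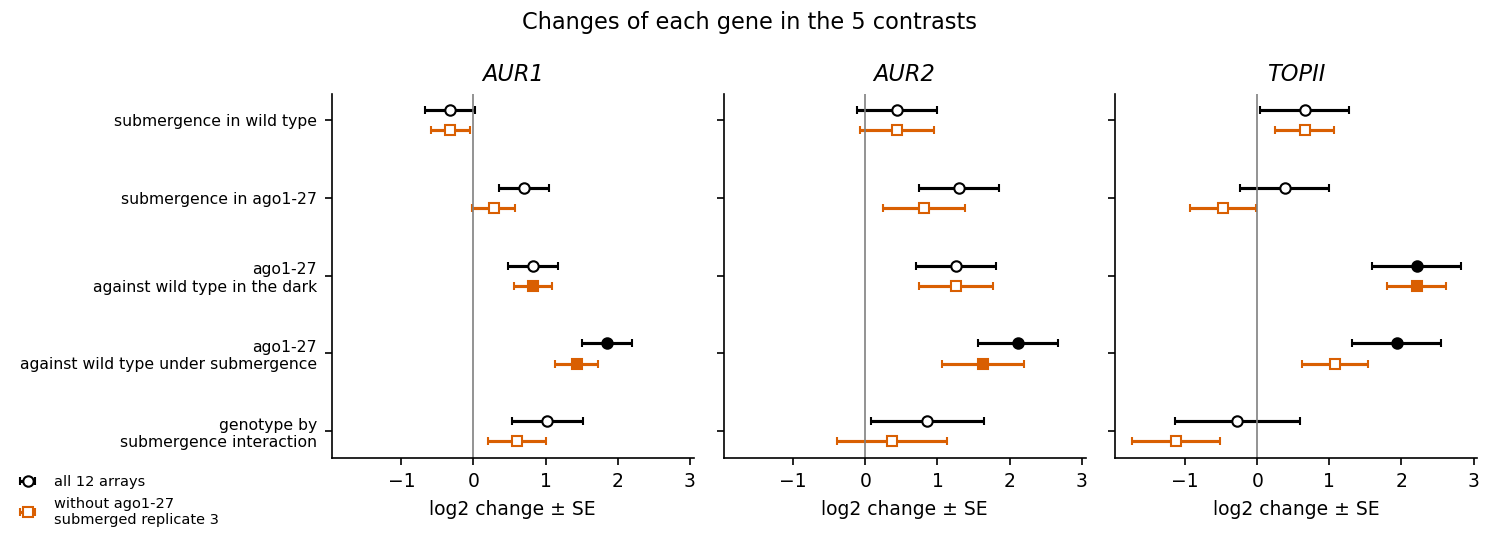
Log2 change ± SE of AUR1, AUR2 and TOPII in the 5 comparisons, with all 12 arrays (black circles) and without replicate 3 of submerged ago1-27 (orange squares); filled symbols have an adjusted p under 0.05. Filled symbols lie in the genotype comparisons alone, and the submergence change of TOPII in ago1-27 lies at 0.38 with all arrays and at -0.47 without replicate 3.

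Replicate 3 of submerged ago1-27 carried the highest signal of all 12 arrays for each of the 3 genes. It exceeded the next-highest array 1.86-fold for AUR1, 2.63-fold for AUR2 and 3.55-fold for TOPII. Within submerged ago1-27 the highest signal was 3.06 times the lowest for AUR1, 2.85 times for AUR2 and 7.07 times for TOPII. Against the mean log2 signal of replicates 1 and 2, replicate 3 was higher by 1.26 for AUR1, 1.45 for AUR2 and 2.55 for TOPII. For comparison, the 5th and 95th percentiles of this difference over all tested probe sets were -0.76 and 1.09, with a median of 0.09, and 6.13% exceeded 1. The share of tested probe sets with a smaller difference was 96.4% for AUR1, 97.5% for AUR2 and 99.5% for TOPII.

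Of a list of 124 cell division genes, 15 are named on the array, and 12 of these are not AUR1, AUR2 or TOPII. Of the 12, 11 had their highest signal on replicate 3, which is the highest of 12 arrays for 26.2% of all tested probe sets, and 3 of these 11 (BIN4, CDC27A and BUBR1) were low even there. KEU, whose Sec1-type protein helps to fuse vesicles at the forming cell plate, was the exception, with a log2 difference of -0.30. By percentile within each array, AUR3, BIN4 and CDC27A were not highest on replicate 3 (43.4, 29.6 and 33.3), while the rest of the 11 were. On other arrays AUR3 reached 45.8, BIN4 35.1 and CDC27A 34.8. The low-signal limit of replicate 3 was also the highest of the arrays, and its part in these differences was not tested. The median difference of the 12 was 0.99. It exceeded the 95th percentile of all tested probe sets for 5 of the 12, namely BUB3.1 and BUBR1, of the spindle checkpoint (1.66 and 1.63), MCM7, a subunit of the replicative DNA helicase (1.44), the kinesin gene PAKRP2 (1.39) and AUR3 (1.11). The other 7 lay between the 5th and 95th percentiles, from -0.30 for KEU to 1.06 for HTR12. BIN4, CDC27A, BUBR1 and PAKRP2 did not pass the filter on low signals, so they are set against probe sets that did. On that array the GAPDH 3' to 5' ratio was 1.69, the lowest of its group, and the ubiquitin ratio was 3.55, the highest of the 12 arrays. Their part in the excess was not tested.

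**Figure D3:**
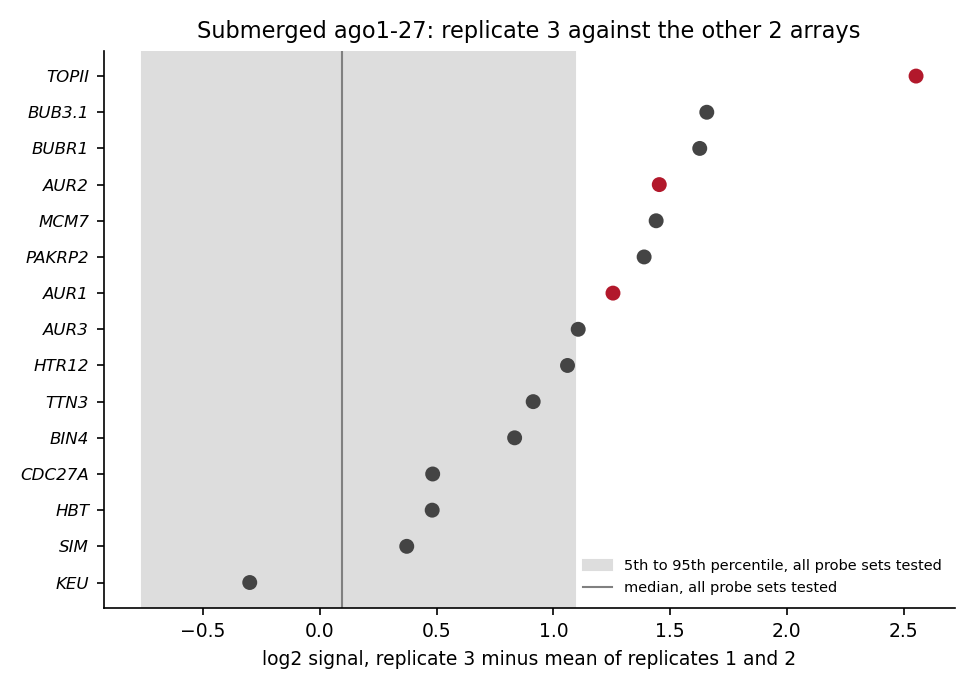
Log2 signal of replicate 3 of submerged ago1-27 minus the mean of replicates 1 and 2, for the 15 cell division genes named on the array; the grey band spans the 5th to 95th percentile of all tested probe sets and the line is their median of 0.09. TOPII lies farthest out at 2.55 and KEU is the one gene below 0, at -0.30. ATSMC2 is labelled TTN3.

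Of the 15 named list genes, 11 passed the filter on low signals. No cyclin, cyclin-dependent kinase or cell cycle transcription factor of the list is named alone by the annotation. Under submergence 8 of the 11 rose in ago1-27 relative to wild type, none fell and 3 were not called, with a median log2 change of 1.43 against 0.17 for all tested probe sets, of which 26.7% were called higher. Leaving out AUR1, AUR2 and TOPII, 5 of 8 rose, with a median of 1.12. In the dark 4 rose, 1 fell and 6 were not called, with a median of 0.74 against 0.17. Without AUR1, AUR2 and TOPII the median in the dark was 0.42. The background in the dark was 32.1% higher and 20.8% lower among all tested probe sets, so that the count of 4 of 11 lay near the background, as did the 3 of 8 without the 3 genes. BIN4, CDC27A, BUBR1 and PAKRP2 (AT4G14330) were above the limit on too few arrays to pass the filter, and since others passed through the arrays where they were high, these counts describe the tested genes alone. With no filter, 9 of the 15 rose under submergence, against 16.7% of all 22746 probe sets, and 5 of the 15 rose in the dark, against 20.4%, and none fell in either. BUBR1 was called in both (adjusted p = 0.0086 under submergence and 0.031 in the dark), but its signals were low on all 12 arrays. Without replicate 3, 5 of the 11 rose under submergence, or 3 of 8 without AUR1, AUR2 and TOPII, against 24.2% of tested probe sets. The median was then 0.95 over the 11 and 0.88 over the 8, against 0.12 for all tested probe sets.

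Among the other Aurora kinase and chromosome genes, AUR3 (AT2G45490, 267529_at) was called in no comparison. Its signals were 72.3, 64.8 and 147 in submerged ago1-27, 114, 63.7 and 118 in dark-kept ago1-27, 52.2, 56.5 and 55.4 in submerged wild type, and 123, 82.5 and 32.8 in dark-kept wild type. Dark arrays of the genotypes overlapped, and submerged ago1-27 arrays lay above submerged wild type, which was low throughout. The log2 difference between genotypes was 0.69 ± 0.48 under submergence (adjusted p = 0.25) and 0.46 ± 0.48 in the dark (adjusted p = 0.44). The differences between AUR3 and its relatives were not tested. Of the topoisomerase genes other than TOPII, BIN4, a component of the topoisomerase VI complex needed for endoreduplication, is the one named, and it was low on all 12 arrays.

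HTR12, the centromeric histone H3 that marks where the spindle attaches, was higher in submerged ago1-27 than in submerged wild type. The log2 change was 1.22 ± 0.42 (adjusted p = 0.033). No fold is given, since HTR12 was low on replicates 1 and 2 of submerged ago1-27 too. Its signals were 84.9, 64.5 and 154 in submerged ago1-27 and 35.03, 59.6 and 32.0 in submerged wild type, low on all but replicate 3 of the mutant, and without that array it was not called (0.87, adjusted p = 0.13). The call was also lost without replicate 1 of submerged ago1-27 (1.297, adjusted p = 0.057) and without replicate 1 (1.11, 0.088) or 3 (1.05, 0.10) of submerged wild type. In the dark HTR12 differed between genotypes by -0.17 ± 0.42 (adjusted p = 0.76). There it was low on every ago1-27 array and above the limit on 2 wild-type arrays. ATSMC2 (AT3G47460), a condensin subunit, differed by 1.505 ± 0.60 under submergence and was not called (adjusted p = 0.058). It was low on all submerged arrays but replicate 3 of the mutant, and without that array the change was 1.20 ± 0.67 (adjusted p = 0.17).

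In the replication and checkpoint groups, MCM7 gave 281, 289 and 773 in submerged ago1-27, against 142, 182 and 125 in submerged wild type, a log2 change of 1.43 ± 0.36 (adjusted p = 0.0062). Leaving out replicate 3 gave 0.95 ± 0.27 (adjusted p = 0.014). In the dark it differed by 0.38 ± 0.36 (adjusted p = 0.39). BUB3.1 gave 175, 191 and 577 in submerged ago1-27, against 57.2, 87.0 and 82.8 in submerged wild type. It rose in ago1-27 by 1.85 ± 0.40 under submergence (adjusted p = 0.0024) and by 1.12 ± 0.40 in the dark (adjusted p = 0.031), and neither comparison had overlapping arrays. Leaving out replicate 3 gave 1.299 ± 0.28 under submergence (adjusted p = 0.0035). Its call in the dark was lost without replicate 1 or 3 of dark-kept ago1-27 or replicate 2 or 3 of dark-kept wild type, with changes of 0.91 to 1.15 and adjusted p of 0.059 to 0.11.

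SIM, an inhibitor of cyclin-dependent kinases that holds trichomes in endoreduplication, rose in ago1-27 by 1.02 ± 0.22 under submergence (adjusted p = 0.0023) and by 0.74 ± 0.22 in the dark (adjusted p = 0.012), a call in the dark that was lost without replicate 3 of dark-kept wild type (0.59, adjusted p = 0.056). Its role is to restrain mitosis, unlike that of the members. HBT, a subunit of the anaphase-promoting complex, rose by 0.72 ± 0.24 under submergence (adjusted p = 0.031) and by 0.87 ± 0.24 in the dark (adjusted p = 0.0099). The first of these calls of HBT was lost without replicate 3 (0.56, adjusted p = 0.11) or 2 (0.71, 0.069) of submerged ago1-27, or replicate 1 (0.70, 0.072) or 2 (0.67, 0.088) of submerged wild type.

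KEU went the other way. Its signals were 1068, 1109 and 884 in submerged ago1-27, 1205, 1419 and 1410.4 in dark-kept ago1-27, 1063, 1089 and 1115 in submerged wild type, and 1369.6, 2148 and 1948 in dark-kept wild type. It fell under submergence in wild type by 0.72 ± 0.16 on the log2 scale (adjusted p = 0.021) and was lower in dark-kept ago1-27 than in dark-kept wild type (log2 change -0.42 ± 0.16, adjusted p = 0.047). The first call was lost without replicate 1 or 2 of submerged or replicate 2 or 3 of dark-kept wild type (-0.72 to -0.59, adjusted p 0.067 to 0.090). The second was lost when any array was left out other than replicate 3 of submerged ago1-27 or replicate 1 of dark-kept wild type, with adjusted p of up to 0.19. It was the 1 list gene of 11 called for submergence in wild type. For submergence in ago1-27 and for the interaction 0 of 11 were called by limma, with 3 and 1 at an unadjusted p under 0.05, against 25% and 14.8% of all tested probe sets.

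**Figure D4:**
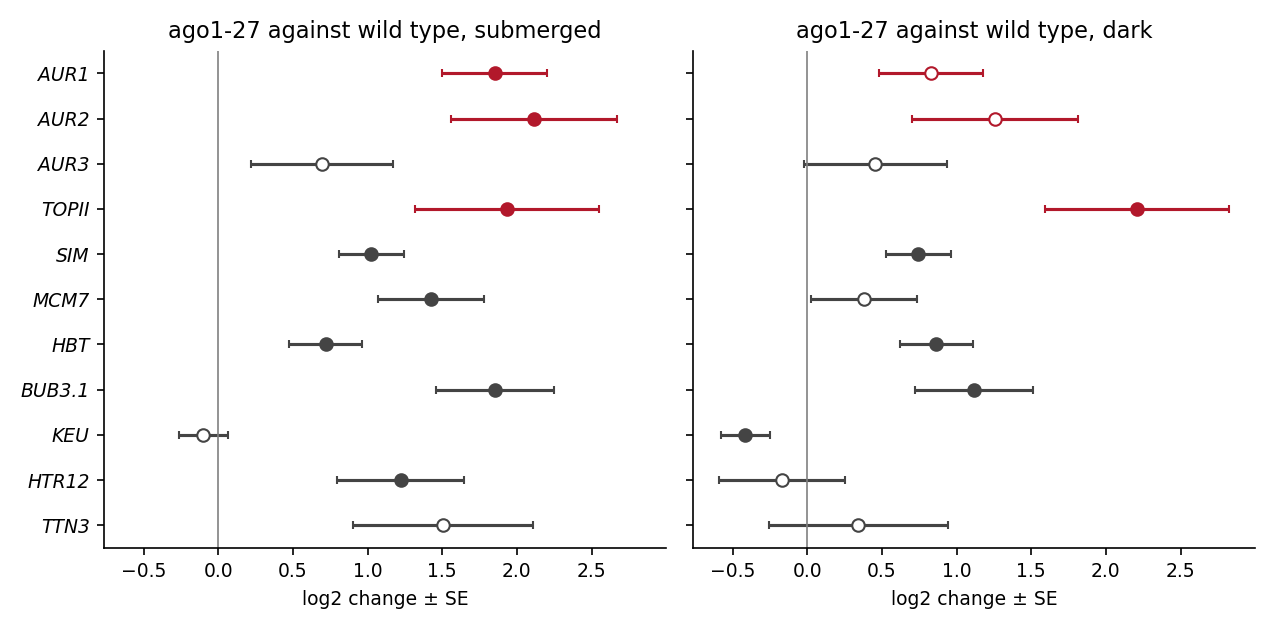
Log2 change ± SE of ago1-27 against wild type under submergence and in the dark for the 11 tested cell division genes; members are red and filled symbols have an adjusted p under 0.05. Under submergence 8 symbols are filled, all above 0, and in the dark 5 are, with KEU below 0 at -0.42. ATSMC2 is labelled TTN3.

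Over the 12 arrays Pearson's r of log2 signals was 0.86 for AUR1 with AUR2, 0.87 for AUR1 with TOPII and 0.92 for AUR2 with TOPII. The genotypes part the arrays and replicate 3 is high for all 3, so these values describe these arrays. Without replicate 3 they were 0.75, 0.76 and 0.85. Many other probe sets were more like each member. By r over the 12 arrays, TOPII ranked 277 and AUR2 404 for AUR1 among the 14835 other tested probe sets. For AUR2, TOPII ranked 157 and AUR1 735, and for TOPII, AUR2 ranked 274 and AUR1 778. Within the 6 ago1-27 arrays, submerged and dark together, r was 0.83, 0.87 and 0.75 for the same pairs. Within the 6 wild-type arrays, where AUR2 and TOPII were low throughout, r was 0.20, 0.04 and 0.94. These values rested on few arrays. Without the 2 farthest arrays of each pair of genes, r was 0.26, 0.79 and -0.48 in ago1-27. In wild type it was then -0.10, -0.03 and 0.47. Over these 6 within-genotype relations no exact permutation test of r passed 0.05 after Benjamini-Hochberg adjustment (lowest adjusted p = 0.13), nor did one of Spearman's rho (lowest adjusted p = 0.27). The arrays were permuted across submerged and dark groups, so these tests do not part treatment from variation within a group.

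The named genes with the profile most like AUR1, by r over the 12 arrays, were AT1G16870, BUB3.1, AT3G51280, 3xHMG-box2 and AT1G10750, at 0.95 to 0.96. 3xHMG-box2, a DNA-binding HMG-box protein, averaged 588 in submerged ago1-27, 302 in dark-kept ago1-27, 117 in submerged wild type and 126 in dark-kept wild type. Without replicate 3 its mean in submerged ago1-27 was 291, so its excess over dark-kept ago1-27 rested on that array. For AUR2 they were AT2G18330, AT3G24080, AT4G16360, AT4G34555 and AT1G20220, at 0.96 to 0.99. For TOPII they were AT4G29700, AT1G27900, AT2G37900, AT2G01630 and AT1G49580, at 0.97 to 0.98. AT4G29700 averaged 281 in submerged ago1-27, 157 in dark-kept ago1-27, 32.6 in submerged wild type and 21.7 in dark-kept wild type. Without replicate 3 its mean in submerged ago1-27 was 101.2, below that of dark-kept ago1-27. An r over 0.9 was shared with AUR1 by 122, with AUR2 by 272 and with TOPII by 413 of the 14835 other tested probe sets. Without replicate 3 these counts were 65, 103 and 910, so that they depended on that array.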

How the data were processed

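Leaf RNA was labelled with a 3' in vitro transcription kit, per the labels' protocols. The deposited table holds 1 intensity per probe set and array, made by the authors with MAS5 per the submitters' processing notes; the version is not given in the sources used here. Every array had a 2% trimmed mean of 500, so the deposited intensities were already scaled and only log2 was taken. Raw probe values were not analysed here.

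The annotation table names 1 gene for 13513 of 22810 probe sets, of which 13436 matched the RefSeq TAIR10.1 gene table and 77 did not; 503 name several genes and 8794 none, the 64 control probe sets among them. MCM7 is named PRL there and FAMA FMA, and ATSMC2 is the gene labelled TTN3 in the figures. A signal over the 40th percentile on 3 or more of the 12 arrays was required, and 14836 probe sets were tested. The 4 group means were fitted with limma 3.58.1 in R 4.3.3, with variances moderated along an intensity trend (residual degrees of freedom 8, prior 4.61), and p-values were adjusted by Benjamini-Hochberg over all tested probe sets with a threshold of 0.05. The fit was also run on simulated data with independent noise and few changed probe sets, whereas many were called between genotypes here. No result rests on that run. Log2 changes are given with the standard error from limma.

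Named were the 3 genes, their related enzymes and the 5 named genes most like each member. Up to 4 called genes of the cell division list per comparison with the largest change were named too. ATSMC2 was added after its values were seen. The members and lists were chosen with earlier results of these data known. Replicate numbers were not taken as pairs: deviations of same-numbered arrays correlated at -0.28 to 0.35, over 0.1 for 8 of 18 pairs. Alternatives were the filter, scaling, pseudocount, variance model, array weights, a replicate block and leaving out arrays.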

Additional observations from a re-analysis of the deposited data

How the results depend on the processing

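Of 342 recomputed log2 changes of the 3 genes, 320 kept their direction and their side of the threshold, 11 passed it newly, 3 lost it and 8 changed sign, all with limma. Higher signals in submerged ago1-27 than in submerged wild type were called under all 23 alternatives for AUR1 (highest adjusted p = 0.0062) and AUR2 (0.038) and under 20 of 23 for TOPII, whose change ranged from 1.08 to 2.49 with 1 array left out. In the dark TOPII was called under all 23 (highest adjusted p = 0.044). There AUR1 was newly called with array weights (1.07, adjusted p = 0.0019), in a fit of only the groups compared (0.83, 0.018) and without both arrays that stand apart (1.02, 0.0067), and ranged from 0.68 to 1.02 with 1 array left out. AUR2 in the dark was newly called with array weights (1.15, 0.023), without both arrays (1.59, 0.021) and with a replicate block (1.25, 0.039), and ranged from 0.76 to 1.67 with 1 array left out; the replicate block changed no other call of the 3 genes. The submergence change of TOPII in ago1-27 was -0.38 with array weights, -0.47 without both arrays and -0.47 to 0.94 with 1 array left out. That of AUR2 in wild type was -0.056 to 0.78 with 1 array left out, the lowest without replicate 2 of wild type in the dark. The interaction of TOPII was 0.083 with a pseudocount of 50 and -1.13 to 0.28 with 1 array left out. With the 25th percentile as the limit, 11 arrays of AUR2 and 11 of TOPII lay above it. Of the list genes, KEU in the dark was called under 10 of 24 alternatives, HTR12 under submergence under 15 of 23, BUB3.1 in the dark under 17 of 23, HBT under submergence and KEU for submergence in wild type under 19 of 24 each, and SIM in the dark under 23 of 24. The share of all tested probe sets called ranged over the alternatives from 2.18% to 29.8% for submergence in wild type, 2.33% to 18.2% for submergence in ago1-27, 28% to 53.8% for genotype under submergence, 33.7% to 66.2% for genotype in the dark and 0.0337% to 12.1% for the interaction. The causes of these changes were not tested.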
